A study of Arabidopsis thaliana with 54 samples.

Results

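Transcript levels of 8 genes around iron uptake by IRT1 were followed in roots and rosettes of Arabidopsis thaliana. The genes were the uptake transporters IRT1 (AT4G19690) and IRT2 (AT4G19680), the plasma membrane proton pumps AHA2 (AT4G30190) and AHA7 (AT3G60330), the xylem loading genes FRD3 (AT3G08040) and FPN1 (AT2G38460), and the vacuolar transporters MTP3 (AT3G58810) and FPN2 (AT5G03570). They were picked by locus identifier, and are 8 of the 33610 gene identifiers counted in every library. The wild type Col-0 and the insertion line spl7 (SALK_109908c) were compared in 54 RNA-seq libraries, 3 for each of 18 groups. Treatment lasted 3 days, in a control medium with 25 µM iron and 0.5 µM copper, in the same medium without copper (-Cu), without iron (-Fe), or without both (-Fe-Cu). Before that, all Col-0 plants had grown at 25 µM iron and 0.1 µM copper. The spl7 plants had grown at 25 µM iron and a rescuing 2.5 µM copper, apart from a second spl7 control that had grown at 0.1 µM copper and whose titles alone carry the word Ex. The mutant was represented by 1 insertion line. Only the second spl7 control shares the pretreatment of Col-0, so a comparison of the other spl7 groups with Col-0 also compares the pretreatments.

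IRT1 is the main transporter that brings ferrous iron into root epidermal cells, after proton pumps have acidified the soil and the reductase FRO2 has reduced ferric iron at the root surface. IRT1 also carries zinc, manganese and cobalt, and root cells hold such passengers in the vacuole with MTP3 (zinc) and FPN2 (cobalt and nickel), while FRD3 releases citrate and FPN1 exports metal towards the xylem. The bHLH factor FIT activates much of this set under iron shortage, and SPL7 is the factor that activates copper uptake genes through promoter motifs with the core GTAC.

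IRT1 and IRT2 lie in tandem on the plus strand of chromosome 4 of the RefSeq assembly TAIR10.1, IRT2 at chr4:10703348-10704838 and IRT1 at chr4:10707344-10709015, with 2505 bases and 0 annotated genes between them. AHA2 is at chr4:14770395-14776247 on the minus strand, AHA7 at chr3:22298373-22303718 on the plus strand, FRD3 at chr3:2566196-2569700 on the minus strand and FPN1 at chr2:16103164-16106208 on the plus strand. MTP3 is at chr3:21749966-21752141 and FPN2 at chr5:903470-906833, both on the plus strand. AHA7 overlaps AT3G00950 on the same strand and AT3G60328 on the opposite strand, FPN2 overlaps AT5G03580 on the opposite strand, and 0.433% of the 50-base words of AHA2 recur in AT2G18960 (AHA1). The strand setting of the counting is not given, so a part of these 3 genes' counts could belong to those neighbours or relatives. The 250 bases before the annotated start are shown for 4 of the genes, because they are the neighbouring uptake pair and the xylem loading pair whose members moved in opposite directions in iron-free Col-0 roots without copper. Each sequence is written 5′ to 3′ on the strand of its gene, from RefSeq TAIR10.1, and capitals mark GTAC.
IRT1 promoter, chr4:10707094-10707343, plus strand: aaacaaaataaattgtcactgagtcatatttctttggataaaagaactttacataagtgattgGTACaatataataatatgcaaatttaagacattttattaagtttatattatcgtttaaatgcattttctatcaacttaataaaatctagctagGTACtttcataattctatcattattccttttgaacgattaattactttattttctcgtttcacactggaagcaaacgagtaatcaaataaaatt
IRT2 promoter, chr4:10703098-10703347, plus strand: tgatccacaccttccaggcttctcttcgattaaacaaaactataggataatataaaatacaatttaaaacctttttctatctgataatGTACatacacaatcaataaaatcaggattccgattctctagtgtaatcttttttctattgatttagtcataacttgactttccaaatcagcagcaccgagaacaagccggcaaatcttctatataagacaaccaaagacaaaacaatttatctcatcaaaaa
FRD3 promoter, chr3:2569701-2569950, minus strand: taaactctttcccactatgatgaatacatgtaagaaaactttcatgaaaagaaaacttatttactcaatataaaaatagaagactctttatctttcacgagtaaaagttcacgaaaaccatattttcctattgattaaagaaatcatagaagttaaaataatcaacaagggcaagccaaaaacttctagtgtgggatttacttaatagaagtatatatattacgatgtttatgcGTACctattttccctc
FPN1 promoter, chr2:16102914-16103163, plus strand: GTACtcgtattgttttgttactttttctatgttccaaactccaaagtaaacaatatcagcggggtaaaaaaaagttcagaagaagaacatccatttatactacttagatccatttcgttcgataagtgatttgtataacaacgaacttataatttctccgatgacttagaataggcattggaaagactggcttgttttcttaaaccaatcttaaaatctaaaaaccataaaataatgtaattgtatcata
Counted from the start, GTAC began at -187 and -94 in IRT1, at -162 in IRT2, at -16 in FRD3 and at -250 in FPN1. AHA7 and FPN2 held 1 GTAC each, and AHA2 and MTP3 held 0, against 34.3% of 27443 promoters of the same length with at least 1. The G-box CACGTG was in 0 of the 8 windows and in 6.49% of all promoters, and the looser E-box CANNTG, which includes it, was in AHA7 and MTP3 and in 55.3% of all promoters. These 3 motifs read the same on both strands, and a match in a window is a match of letters only.

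Library totals were 9254761 to 17277379 counts in roots and 11694883 to 20061836 counts in rosettes. SPL7 stood at 58.3 to 77.8 CPM (the CPM unit of edgeR, counts scaled by the effective library size) in roots of Col-0 and at 23.0 to 28.9 CPM in roots of spl7, so every root library matched its genotype label. The root library labelled spl7 -Fe replicate 3 stood apart: its log2 CPM correlated at 0.937 with the mean of its own group and at 0.993 with that of spl7 -Fe-Cu. It is given with its label, and several results of the 8 genes that rest on it are also given without it. Results for markers and pathway lists, the order of the groups and the correlations with IRT1 are given with this library only. A further 7 libraries, 1 of roots and 6 of rosettes, correlated better with another group than with their own, and each of these was a control or -Cu library. Among them, rosette spl7 -Cu replicate 1 correlated at 0.979 with its own group and at 0.987 with Col-0 -Cu. SPL7 was at 9.89 CPM in it, at 10.99 and 11.23 CPM in its fellow replicates and at 25.05 to 26.78 CPM in Col-0 -Cu. The gene FSD1 had 55 counts in it, 3 and 4 in its fellow replicates and 7783 to 9791 in Col-0 -Cu. The tissue labels matched their markers: 3 leaf genes summed to 8.02 to 134.8 CPM in roots and to 13640 to 31000 CPM in rosettes, and the root hair gene EXPA7 and the endodermis gene CASP1 were at 0 and 0.118 CPM on average in the Col-0 rosette control against 34.9 and 139.1 CPM in the matching roots. In whole organs, fewer cells of a type and less RNA per cell cannot be told apart.

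Per length, AHA2 was the most abundant of the 8 in Col-0 control roots at 487 CPM per kilobase of exon, followed by IRT1 at 198, FPN2 at 41.0 and MTP3 at 28.6. AHA7, FPN1 and FRD3 stood at 9.88, 9.86 and 7.04 CPM per kilobase, and IRT2 at 0.652. IRT1 reached 778 CPM per kilobase in iron-free Col-0 roots, above AHA2 at 532 in the same libraries. The SD between libraries of IRT1 was 82.4% of the mean in the Col-0 control and 10.5% without iron, and that of FPN1 was 1.85% to 6.66% in the 4 Col-0 root groups. A gene is called changed where the edgeR quasi-likelihood test gave a Benjamini-Hochberg adjusted p below 0.05 over all genes tested, and changes are log2 values ± standard error (SE), n = 3 libraries per group.

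**Figure D1:**
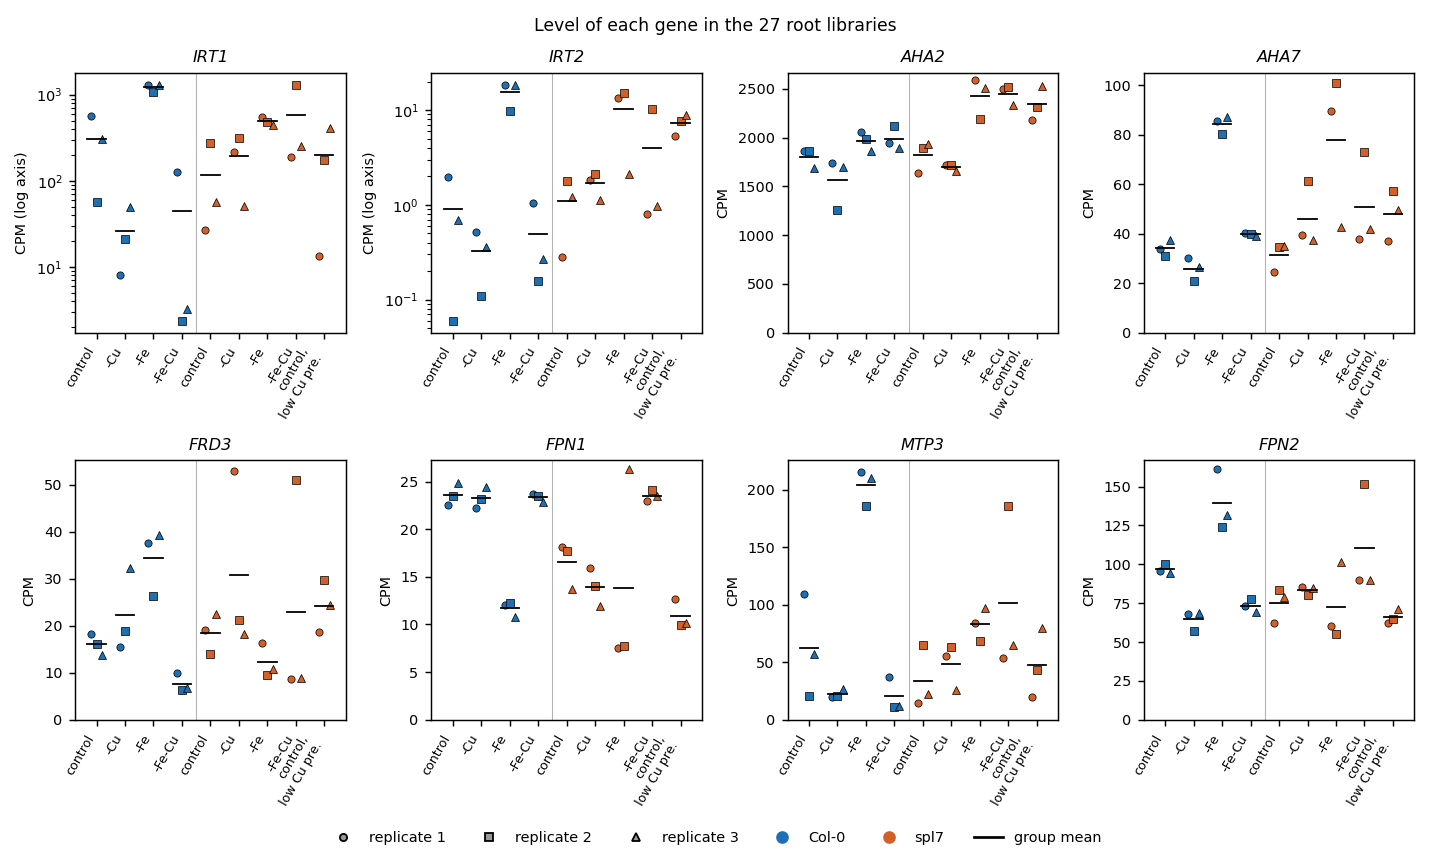
CPM of each of the 8 genes (y axis, logarithmic for IRT1 and IRT2) in each root library, by treatment and genotype. Points are single libraries with the replicate number as shape, and lines are means of 3 libraries. IRT1 ran from 1070 to 1294 CPM in iron-free Col-0 roots and from 2.37 to 127 CPM without both metals, and FPN1 in the library labelled spl7 -Fe replicate 3 stood at 26.3 CPM against 7.51 and 7.74 in the other two.

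Iron removal from Col-0 roots was the first comparison. Of the 8 genes, 3 rose and 1 fell, and 20.4% of all 20462 genes tested were called (9.94% higher and 10.4% lower). The median change of the 8 was 1.20 against 0.01 over all genes tested.

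IRT1 was at 567, 56.7 and 305 CPM in the 3 Col-0 control libraries and at 1288, 1070 and 1294 CPM without iron. The groups did not overlap, and control replicate 2 was far below the other control libraries. The change of 1.98 ± 1.18 did not pass (adjusted p = 0.234), though an edgeR fit of these 2 groups alone called it (1.97, adjusted p = 0.0404), with 7 of the 8 genes called in that fit. IRT2, a close relative of IRT1 in the same cells, went from 1.97, 0.060 and 0.692 CPM to 18.3, 9.88 and 18.4 CPM. All iron-free libraries were above all control libraries, and IRT2 rose 17.7-fold (log2 change 4.14 ± 0.84, adjusted p = 0.00241).

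The proton pumps differed from each other. AHA2, the main root pump, had 1858, 1863 and 1687 CPM in the control and 2053, 1989 and 1861 CPM without iron, and the groups overlapped (0.13 ± 0.11, adjusted p = 0.412). AHA7, a pump gene linked to iron shortage and root hairs, rose from 33.9, 30.9 and 37.3 CPM to 85.7, 80.2 and 86.9 CPM, with no overlap (1.31 ± 0.26, adjusted p = 0.00215). In the same comparison 3 of 4 epidermis and root hair markers rose, COBL9 by 0.80 ± 0.17, EXPA7 by 0.64 ± 0.16 and GL2 by 0.56 ± 0.12, and the sum of the 4 markers was 75.6 to 99.0 CPM in the control and 118.5 to 148.4 CPM without iron. Their part in the change of AHA7 or IRT2 was not tested.

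FRD3, the citrate exporter of the vascular cylinder, had 18.3, 16.1 and 13.8 CPM in the control and 37.6, 26.4 and 39.3 CPM without iron, with no overlap, but its change of 1.099 ± 0.49 did not pass (adjusted p = 0.108). FPN1 fell, from 22.5, 23.5 and 24.9 CPM to 12.0, 12.3 and 10.8 CPM, with every iron-free library below every control (-1.01 ± 0.28, adjusted p = 0.0146). The call on FPN1 was lost without control replicate 2 (adjusted p = 0.051) or without -Fe replicate 3 (0.0596), with the size near constant.

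MTP3 rose from 109, 20.5 and 57.2 CPM to 215.4, 185.6 and 210.6 CPM (1.72 ± 0.60, adjusted p = 0.0443). Its control libraries spread as those of IRT1 did, with replicate 2 lowest, and the call held in 1 of the 6 fits that each left out 1 library, the one without control replicate 1 (adjusted p = 0.0244). Omitting control replicate 2, control replicate 3 or any of the 3 -Fe libraries gave adjusted p values of 0.075 to 0.2. FPN2 had 95.9, 100.2 and 94.3 CPM in the control and 161.5, 124.1 and 132 CPM without iron, above every control, and narrowly did not pass (0.52 ± 0.19, adjusted p = 0.0512).

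When copper was removed as well as iron, 6 of the 8 genes fell and FPN1 rose in Col-0 roots, where 8.72% of all genes tested were called (3.66% higher and 5.06% lower). This comparison sets -Fe-Cu against -Fe, and so shares the -Fe libraries with the comparison above. The median change of the 8 was -1.62 against -0.01 over all genes.

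IRT1 fell from 1288, 1070 and 1294 CPM to 127, 2.37 and 3.21 CPM, which is 27.4-fold in the fit (-4.78 ± 1.34, adjusted p = 0.0287). The lowest iron-free library was above the highest doubly deficient one, and within the latter group replicate 1 was far above the other two. Without that replicate the change was -8.75 (adjusted p = 0.00494), and in each of the other 5 fits with 1 library fewer the call was lost at adjusted p values of 0.0519 to 0.114: -Fe replicates 1, 2 and 3 and -Fe-Cu replicates 2 and 3 each ended it. IRT2 fell 30.5-fold, to 1.05, 0.158 and 0.267 CPM (-4.93 ± 0.92, adjusted p = 0.00167), and kept its call in all 6 such fits.

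AHA2 stayed within its spread at 1941, 2116 and 1897 CPM (0.01 ± 0.11, adjusted p = 0.964). AHA7 fell to 40.3, 39.9 and 39.0 CPM, with the 3 libraries close together and all below the -Fe libraries (-1.09 ± 0.26, adjusted p = 0.0108). The AHA7 call was lost without -Fe-Cu replicate 3 (adjusted p = 0.0522). The 4 epidermis and root hair markers had a median change of -0.16 in this comparison, with a sum of 112.3 to 116.4 CPM without both metals.

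FRD3 fell to 9.97, 6.39 and 6.68 CPM, below every -Fe library and also below every control library (-2.16 ± 0.52, adjusted p = 0.0117). Its call was lost without -Fe-Cu replicate 2 (adjusted p = 0.0616) or replicate 3 (0.0639). FPN1 went the other way, from 12.0, 12.3 and 10.8 CPM to 23.7, 23.5 and 22.8 CPM, which overlaps the control range of 22.5 to 24.9 CPM (0.99 ± 0.28, adjusted p = 0.0277). The values of FPN1 hardly moved when any of the 6 libraries was left out (0.95 to 1.04), yet none of those fits called it (adjusted p = 0.0667 to 0.0887).

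MTP3 fell 10.0-fold, to 37.6, 11.2 and 12.0 CPM, again with replicate 1 highest (-3.33 ± 0.65, adjusted p = 0.00234). FPN2 fell to 73.3, 77.4 and 69.6 CPM, below all -Fe and all control libraries (-0.92 ± 0.19, adjusted p = 0.00362). Both calls held whichever of the 6 libraries was left out.

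**Figure D2:**
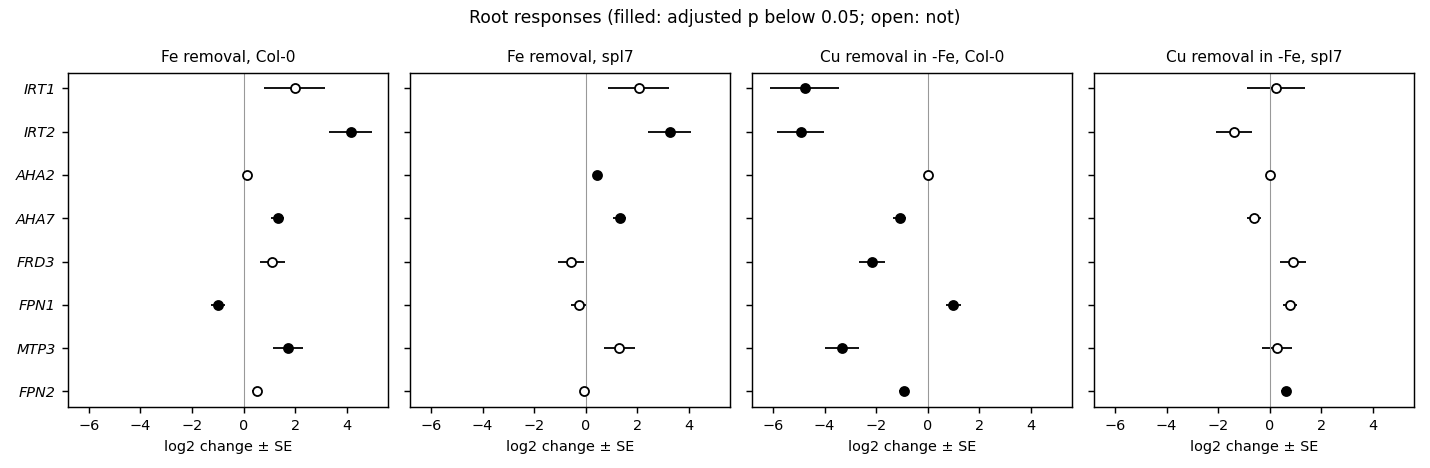
Log2 change ± SE (x axis) of each of the 8 genes (y axis) in 4 root comparisons, filled where the adjusted p of the edgeR test was below 0.05. With iron absent, copper removal in Col-0 gave 7 filled points, 6 of them negative and FPN1 at 0.99, and in spl7 it gave 1, FPN2 at 0.61.

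Copper removal with iron present called 0 of the 8 genes in Col-0 roots by edgeR and 0 by the DESeq2 Wald test, where 0.0733% of all genes tested were called. At an unadjusted p below 0.05 there were 3, and 3262 of the 20462 genes tested: IRT1 (-3.58 ± 1.29), MTP3 (-1.47 ± 0.63) and FPN2 (-0.58 ± 0.19). IRT1 had 7.99, 21.1 and 49.1 CPM, all below the 3 control libraries, whose lowest was 56.7. FPN2 had 68.0, 56.8 and 68.7 CPM, also below every control library, and MTP3 had 20.2, 20.6 and 26.5 CPM, which overlapped the control. Against the full control, removal of both metals called 0 of the 8 by edgeR and 0 by the Wald test (background 4.69%), with the same 3 genes, and 4487 of all genes tested, below an unadjusted p of 0.05. In an edgeR fit of only the control and -Fe-Cu libraries FPN2 (-0.40, adjusted p = 0.00764) and FRD3 (-1.06, adjusted p = 0.00731) were called lower. Without -Fe-Cu replicate 1, IRT1 was called in that comparison (-6.77, adjusted p = 0.0367).

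Whether the doubly deficient Col-0 roots departed from the sum of the single deficiencies was tested as an interaction. FRD3 was the 1 gene called, at -2.62 ± 0.72 (adjusted p = 0.0487), where 2.89% of all genes tested were called and 1.45% were called lower. FRD3 was at 15.4, 18.9 and 32.3 CPM without copper alone, overlapping the control, and at its lowest without both metals. Of the 12 fits that left out 1 library, only that without -Cu replicate 1 kept the call (adjusted p = 0.026), and the other 11 gave adjusted p values of 0.0667 to 0.118. For IRT1 the interaction was -1.20 ± 1.67 (adjusted p = 0.693) and did not pass.

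Iron removal from spl7 roots, set against the spl7 control of the same copper-rich pretreatment, raised 3 of the 8 genes, where 13.1% of all genes tested were called and 8.33% were called higher. IRT1 had 26.7, 271.5 and 56.3 CPM in the control and 551.8, 478.2 and 438.6 CPM without iron, with no overlap (2.05 ± 1.19, adjusted p = 0.263). These iron-free levels were below every iron-free Col-0 library, after another pretreatment. IRT2 rose from 0.285, 1.79 and 1.21 CPM to 13.3, 15.2 and 2.12 CPM (3.25 ± 0.83, adjusted p = 0.012), with the last value from the library labelled spl7 -Fe replicate 3 and all 3 above the control. Leaving out control replicate 1, -Fe replicate 1 or -Fe replicate 2 ended the IRT2 call (adjusted p = 0.0664, 0.0639 and 0.0615). The IRT2 change was 3.70 without the library labelled spl7 -Fe replicate 3 (adjusted p = 0.00025).

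AHA2 rose in iron-free spl7 roots from 1633, 1890 and 1929 CPM to 2592, 2185 and 2506 CPM, with no overlap (0.42 ± 0.11, adjusted p = 0.0128), and the call was lost without control replicate 1 (adjusted p = 0.0809) or -Fe replicate 1 (0.103). The AHA2 change was 0.39 without the library labelled spl7 -Fe replicate 3 (adjusted p = 0.00875). AHA7 rose from 24.6, 34.7 and 34.9 CPM to 89.4, 100.8 and 42.8 CPM (1.31 ± 0.26, adjusted p = 0.00237), again with no overlap, and kept its call in all 6 fits with 1 library fewer. An edgeR fit of the 2 spl7 groups alone called 0 of the 8 genes (adjusted p = 0.253 for IRT2, 0.347 for AHA2 and 0.248 for AHA7). Over the same libraries the summed epidermis and root hair markers were 86.0 to 102.1 CPM in the control and 58.4 to 90.3 CPM without iron, and 1 of 4, WER, fell (-0.69 ± 0.18), while 3 of 5 endodermis, stele and xylem markers fell. Their part in these changes was not tested.

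FPN1 showed the widest split in iron-free spl7 roots, at 7.51 and 7.74 CPM in replicates 1 and 2 and at 26.3 CPM in the library labelled replicate 3. The control had 18.2, 17.7 and 13.8 CPM. With all libraries the change was -0.28 ± 0.28 (adjusted p = 0.539), and without that library it was -1.12 and called (adjusted p = 3.21e-07). MTP3 had 14.3, 65.0 and 22.7 CPM in the control and 84.2, 68.8 and 97.4 CPM without iron (1.30 ± 0.61, adjusted p = 0.157). FRD3 (16.3, 9.58 and 10.9 CPM) and FPN2 (60.4, 55.0 and 101.4 CPM) did not pass in iron-free spl7, at -0.59 ± 0.51 and -0.05 ± 0.19, and without that library at -0.52 and -0.38 (adjusted p = 0.495 and 0.0765). The fit without it called 8204 genes in this comparison, against 2684 with all libraries.

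The difference between the genotypes in the response of roots to iron removal called 0 of the 8 genes by edgeR and 0 by the Wald test, against 7.02% of all genes tested, and 2 (FRD3 and FPN2) had an unadjusted p below 0.05, as did 4435 of all genes tested. For FRD3 the difference was -1.69 ± 0.70 and for FPN2 -0.58 ± 0.27. Without the library labelled spl7 -Fe replicate 3, FPN2 was called, at -0.90 for spl7 against Col-0 (adjusted p = 0.00593), in a fit that called 3717 genes against 1436 with all libraries. For AHA7 the 2 genotypes gave 1.31 each, and the difference was 0.00 ± 0.36. Without that library, AHA7 was at 1.59 in spl7 and the difference was 0.29 (adjusted p = 0.587). All 4 epidermis and root hair markers were lower in this difference, by 0.91 to 1.13.

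Removal of copper from iron-free spl7 roots raised FPN2 and called no other of the 8 genes, where 13.9% of all genes tested were called and 5.19% were called higher. IRT1 had 191.3, 1289 and 253.8 CPM without both metals, against 438.6 to 551.8 CPM without iron alone, and 1 of the 3 doubly deficient libraries was above all -Fe libraries (0.24 ± 1.14, adjusted p = 0.91). The same library, replicate 2, was also highest for IRT2 (0.795, 10.2 and 0.968 CPM), AHA7 (38.0, 72.8 and 42.0 CPM), FRD3 (8.74, 51.1 and 8.78 CPM) and MTP3 (53.96, 186 and 64.8 CPM). It correlated best with its own group over all genes.

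FPN2 went from 60.4, 55.0 and 101.4 CPM to 89.8, 151.8 and 89.7 CPM, with overlap (0.61 ± 0.19, adjusted p = 0.0356). The call on FPN2 was lost in an edgeR fit of these 2 groups alone (adjusted p = 0.412), and without -Fe replicate 1 (adjusted p = 0.251), -Fe replicate 2 (0.22) or -Fe-Cu replicate 2 (0.232). Without the library labelled spl7 -Fe replicate 3, 4 genes were called: FPN2 (0.95) and FPN1 (1.63) higher, and AHA7 (-0.89) and IRT2 (-1.83) lower. That fit called 9088 genes in all, against 2844 with all libraries. Without -Fe-Cu replicate 2, AHA7 (-0.95, adjusted p = 0.0376) and IRT2 (-3.52, adjusted p = 0.0173) were called lower. FPN1 was at 23.0, 24.1 and 23.4 CPM in doubly deficient spl7 roots, close to the 22.8 to 23.7 CPM of doubly deficient Col-0. AHA2 was at 2498, 2522 and 2334 CPM (0.01 ± 0.11).

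Set side by side, the log2 values for copper removal in iron-free roots were -2.16 in Col-0 and 0.89 in spl7 for FRD3, -3.33 and 0.28 for MTP3, -0.92 and 0.61 for FPN2, -4.78 and 0.24 for IRT1, and -4.93 and -1.38 for IRT2. The test of that difference, chosen after these values were seen, called 3 of the 8 genes where 2.04% of all genes tested were called and 0.968% were called higher. FRD3 differed by 3.05 ± 0.72 (adjusted p = 0.0277), MTP3 by 3.61 ± 0.86 (adjusted p = 0.0284) and FPN2 by 1.54 ± 0.27 (adjusted p = 0.00424). For IRT1 the difference of 5.02 ± 1.71 and for IRT2 that of 3.55 ± 1.20 did not pass (adjusted p = 0.136 and 0.13), although IRT1 passed without Col-0 -Fe-Cu replicate 1 (8.999, adjusted p = 0.0199). Without the library labelled spl7 -Fe replicate 3, 5 genes were called, IRT2 (3.09, adjusted p = 0.0453) and FPN1 joining, and FPN1 changed sign from -0.20 ± 0.39 to 0.63 (adjusted p = 0.00898). That fit called 3955 genes in all, against 418 with all libraries. FPN2 kept its call in all 12 fits with 1 library fewer, FRD3 in 6 and MTP3 in 4, and without spl7 -Fe-Cu replicate 2 the values were 1.67 for FRD3 (adjusted p = 0.145) and 2.83 for MTP3 (0.118). An edgeR fit of only the 4 groups concerned called 0 of the 8, and the pretreatments differ with the genotypes here.

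With copper removal alone, spl7 roots gave 0 calls by edgeR and 0 by the Wald test among the 8 (background 0.21%), and AHA7 alone of the 8 was below an unadjusted p of 0.05 (0.56 ± 0.27), as were 1740 of all genes tested. IRT1 had 218.2, 310.6 and 51.1 CPM there, overlapping its control. FRD3 had 52.9, 21.3 and 18.3 CPM, again with 1 library far above the others. Removal of both metals from spl7 gave 0 calls among the 8 by edgeR against its control (background 0.855%), 5 of the 8 and 1836 of all genes tested below an unadjusted p of 0.05, and 1 call by the Wald test, AHA2 (adjusted p = 0.00342, against 0.0602 by edgeR).

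Controls of the 2 genotypes after the same 0.1 µM copper pretreatment were then compared. In roots IRT2 and AHA2 were higher and FPN1 lower in spl7, where 13.3% of all genes tested were called (6.75% higher and 6.5% lower). IRT2 had 5.36, 7.66 and 8.85 CPM in spl7 against 0.060 to 1.97 CPM in Col-0, with no overlap (3.06 ± 0.87, adjusted p = 0.0233). AHA2 had 2184, 2311 and 2528 CPM, all above the highest Col-0 control of 1863 (0.38 ± 0.11, adjusted p = 0.0239). FPN1 had 12.7, 9.91 and 10.2 CPM, all below the lowest Col-0 control of 22.5 (-1.11 ± 0.28, adjusted p = 0.0115).

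The levels of IRT1 in that spl7 control were 13.3, 172.8 and 407.2 CPM, which also spread widely (adjusted p = 0.746). The IRT2 and AHA2 calls were each lost without Col-0 control replicate 2 or 3 or without spl7 replicate 2 or 3 (adjusted p = 0.0538 to 0.12), and the FPN1 call without spl7 replicate 2 (0.06). The markers EXPA7 (1.24 ± 0.16) and COBL9 (0.78 ± 0.18) were also higher, with summed epidermis and root hair markers at 147.1 to 152.2 CPM in spl7. Of 5 endodermis, stele and xylem markers, 2 were higher, with a sum of 682.2 to 738.2 CPM in spl7 and 531.1 to 543.0 CPM in Col-0. The part of these markers in the differences was not tested. Between the 2 spl7 controls, 0 of the 8 genes were called by edgeR and 1, AHA2, by the Wald test (0.37, adjusted p = 0.00963), against 4.36% of all genes tested, and 4 of the 8 and 3767 of all genes tested had an unadjusted p below 0.05. IRT2 was at 2.75 ± 0.85 there (adjusted p = 0.0668), and all 3 leaf markers were higher in the roots of the low-copper control, with a sum of 42.8 to 134.8 CPM against 8.41 to 35.2.

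Ordered by mean level over the 9 root groups, IRT1, IRT2 and MTP3 were all highest in iron-free Col-0 and lowest in Col-0 roots without copper, with or without iron, and neighbouring groups in the order overlapped throughout. FRD3 was also highest in iron-free Col-0 and lowest in doubly deficient Col-0, with overlap between all neighbours. In the order of FPN1, the lowest of the 4 groups at 23.3 CPM or above on average (3 of Col-0 and spl7 -Fe-Cu) did not overlap its neighbour, the spl7 control at 13.8 to 18.2 CPM, but spl7 -Fe, lower on average, reached 26.3 CPM in the library labelled replicate 3. AHA2 also had 1 gap, below the 3 highest groups, all of spl7.

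Across the 27 root libraries, the genes whose log2(CPM + 1) tracked IRT1 most closely by Pearson's r, out of 20461, were FRO2 at 0.981, MTP3 at 0.953, GSTL1 at 0.907, AT5G38820 at 0.896 and UGT72E1 at 0.889. IRT2 ranked 42 at 0.708, AHA7 69 at 0.669, FPN2 170 at 0.581, FRD3 684 at 0.456 and AHA2 1540 at 0.373, and FPN1 stood at -0.354. FIT, the factor that activates IRT1, ranked 200 at 0.564. These values describe libraries that share groups, treatments and sequencing, and the wide spread of IRT1 inside groups enters all of them: in the Col-0 control FRO2 had 431.9, 43.9 and 217.3 CPM, in the same order as IRT1, and in spl7 -Fe-Cu it had 136.5, 1281 and 184.8 CPM.

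**Figure D3:**
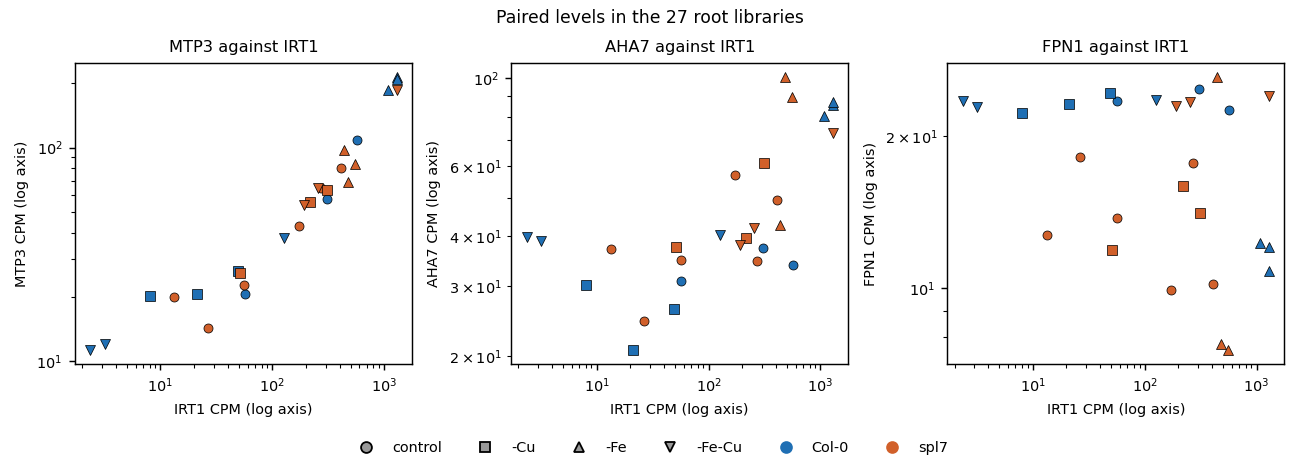
CPM of MTP3, AHA7 and FPN1 (y axes) against IRT1 (x axis) in the 27 root libraries, all axes logarithmic. Each point is 1 library, shapes are treatments, colours are genotypes, and the spl7 controls include both pretreatments. IRT1 ranged from 2.37 to 1294 CPM, and MTP3 correlated with it at a Pearson's r of 0.953 on the log2(CPM + 1) scale. MTP3 was at 11.2 and 12.0 CPM in Col-0 -Fe-Cu replicates 2 and 3, where IRT1 was lowest at 2.37 and 3.21 CPM. It had 20.2 CPM in Col-0 -Cu replicate 1 and 20.5 CPM in Col-0 control replicate 2, with IRT1 at 7.99 and 56.7 CPM. FPN1 stood at 10.8 to 12.3 CPM in the 3 iron-free Col-0 libraries and at 22.3 CPM or above in the other Col-0 libraries.

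The wider pathway gave a background for the 8 genes, beside 9.94% of all genes tested called higher and 10.4% lower for iron removal from Col-0 roots, and 3.66% higher and 5.06% lower when copper was also removed. Of 13 other iron mobilisation and uptake genes, 5 rose and 1 fell in Col-0 roots without iron (median 1.39), and 9 fell and 0 rose when copper was also absent (median -2.76). The largest falls were MYB72 (-6.51 ± 1.64), a factor for coumarin release, the nicotianamine synthase NAS2 (-5.64 ± 1.36), the reductase FRO2 (-4.07 ± 1.26) and the factor MYB10 (-3.00 ± 0.58). Of 17 iron regulators, 8 fell with copper removal from iron-free Col-0 roots (median -1.07), led by BHLH100 (-5.96 ± 1.35), IMA3 (-5.28 ± 0.98), BHLH38 (-4.51 ± 1.09) and BHLH101 (-3.43 ± 0.62), and FIT fell by 1.07 on the log2 scale. The median over all genes tested was -0.01 in that comparison.

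Among the other plasma membrane proton pump genes, 7 of 9 were tested in roots. AHA3 (0.69 ± 0.13), AHA11 (0.58 ± 0.11) and AHA4 (0.47 ± 0.16) rose without iron in Col-0, and with copper also absent AHA4 fell (-0.67 ± 0.16) and AHA8 rose (0.40 ± 0.10). Of 5 genes for trafficking and turnover of IRT1, IDF1, which encodes a ubiquitin ligase of the IRT1 protein, had changes opposite in sign to IRT1 in Col-0. The change of IRT1 without iron was itself not called (adjusted p = 0.234 by edgeR), and a relation between these genes was not tested. IDF1 fell without iron (-1.23 ± 0.17, adjusted p = 0.000109) and rose when copper was also removed (0.91 ± 0.17, adjusted p = 0.00185), whereas in iron-free spl7 it rose (0.61 ± 0.17), and the difference between the genotypes was 1.84 ± 0.24 (adjusted p = 0.000126).

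Of 6 other vacuolar and plastid metal transporters, 5 were tested in roots. MTP8, a vacuolar manganese carrier, rose without iron in Col-0 (3.05 ± 0.88) and fell when copper was removed too (-4.61 ± 1.06), and HMA3, annotated as a heavy metal ATPase, did the same (0.49 ± 0.17 and -1.10 ± 0.18). In spl7, 13.9% of all genes tested were called for the copper step from iron-free roots, and 5.19% were called higher. This step called 1 of the 13 uptake genes in each direction, NAS4 lower (-4.38 ± 0.67) and BGLU42 higher (1.45 ± 0.45). It also called 4 of 17 regulators lower, IMA3 (-3.89 ± 0.75), IMA2 (-2.55 ± 0.84), BTS (-1.05 ± 0.19) and PYE (-0.91 ± 0.17).

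Roots and rosettes of the Col-0 control were compared on a common scale of all 54 libraries. Of the 8 genes, 7 were higher in roots, where 77.9% of all 22078 genes tested were called in either direction and 40.8% were called higher in roots. IRT1 had 486, 49.8 and 259 CPM in roots and 0.600, 0.544 and 1.59 CPM in rosettes (8.09 ± 1.36, adjusted p = 1.06e-06). AHA2 had the smallest difference of the 7 (2.60 ± 0.11), with 252.9 to 259.6 CPM in rosettes. FPN1 was the exception, at 19.3, 20.6 and 21.1 CPM in roots and 19.6, 22.9 and 19.9 CPM in rosettes, which overlapped (-0.03 ± 0.23, adjusted p = 0.91).

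AHA7, FRD3 and MTP3 were higher in roots by 4.20 ± 0.32, 5.38 ± 0.72 and 4.19 ± 0.59. IRT2 had 37 counts in the 3 root libraries and 0 in the 3 rosette libraries, at least 4.46-fold higher against a floor of 3 counts per library. Its call was lost without root replicate 1 (adjusted p = 0.132) or rosette replicate 3 (0.0581). FPN2 had 4215 and 2 counts, a ratio of 2280 per library total (95% exact binomial interval 632 to 18900, which covers counting error alone). Over all 27 rosette libraries IRT2 had 6 counts and FPN2 18, so neither passed the count filter and neither was tested in rosettes.

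In rosettes IRT1 was low but measurable in all 27 libraries. Without iron it had 3.88, 1.79 and 1.09 CPM in Col-0, against 0.507, 0.458 and 1.35 CPM in the control. These overlapped, and 0 of the 6 tested genes were called by edgeR (IRT1 1.44 ± 0.42, adjusted p = 0.0737) where 2.41% of all 20015 genes tested were. IRT1 alone of the 6 had an unadjusted p below 0.05, as did 2982 of all genes tested, and the Wald test called it (adjusted p = 0.0448), as did the edgeR fits without control replicate 3 (0.0227) or -Fe replicate 3 (0.0207).

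In spl7 rosettes IRT1 rose from 0.985, 1.39 and 1.51 CPM to 10.2, 7.70 and 7.67 CPM without iron, with no overlap (2.72 ± 0.37, adjusted p = 1.58e-05). FRD3 rose there from 0.422, 0.397 and 0 CPM (6, 6 and 0 counts) to 1.82, 2.55 and 2.05 CPM (2.86 ± 0.68, adjusted p = 0.00344). IRT1 and FRD3 were 2 of 6 tested genes, where 27.4% of all genes were called and 12.6% were called higher. The xylem gene IRX3 also rose in this comparison (2.16 ± 0.33), the 3 leaf markers fell by 0.45 to 0.69, and their part in the change of FRD3 was not tested. The 4 epidermis and root hair markers summed to 6.05 to 7.38 CPM in iron-free spl7 rosettes against 8.87 to 10.4 CPM in the control. GL2, which leaves also express, held 8.56 CPM of that sum on average in the Col-0 rosette control. The difference between the genotypes in the iron response was 1.28 ± 0.58 for IRT1 and did not pass (adjusted p = 0.164), with 0 of 6 called by edgeR and 0 by the Wald test against 8.46% of all genes. IRT1 alone of the 6 was below an unadjusted p of 0.05, with 5133 of all genes tested, and it passed without Col-0 -Fe replicate 1 (1.90, adjusted p = 0.0299).

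Copper removal from iron-free rosettes lowered IRT1 in both genotypes. In Col-0 it fell to 0.374, 0.148 and 0.297 CPM (5, 2 and 5 counts), below every -Fe library and every control library (-2.97 ± 0.52, adjusted p = 0.000577, background 12.8% in either direction and 5.61% lower). In spl7 it fell to 0.750, 1.49 and 1.22 CPM, which overlapped its control of 0.985 to 1.51 CPM (-2.90 ± 0.38, adjusted p = 1.77e-05, background 18.1% and 7.76% lower). IRT1 was the 1 gene called of 6 in each, both calls held in all 6 fits with 1 library fewer, and the difference between the genotypes was 0.07 ± 0.51 (adjusted p = 0.967), with 0 of 6 genes called by edgeR and 0 by the Wald test against 2.56% of all genes, and AHA2 alone of the 6 and 3121 of all genes below an unadjusted p of 0.05. This does not show that the genotypes responded alike. In the spl7 comparison FRD3 went from 1.82, 2.55 and 2.05 CPM to 0.205, 0.791 and 1.04 CPM, with no overlap. Its counts without both metals were 3, 9 and 17. FRD3 was not called there, but had an unadjusted p below 0.05, as did 6142 of all genes tested. Of the 3 leaf markers, 2 rose in the Col-0 comparison and 3 in that of spl7, where IRX3 fell (-2.17 ± 0.33), and their part was not tested.

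The interaction of the deficiencies in Col-0 rosettes was also called for IRT1 (-3.46 ± 0.71, adjusted p = 0.00493, background 4.52% and 1.88% lower). IRT1 had 1.28, 1.33 and 0.779 CPM without copper alone, overlapping its control, and was lowest without both metals. Its raw counts were low, at 5, 2 and 5 without both metals and 8, 6 and 25 in the control. The interaction was called for IRT1 in all 12 fits with 1 library fewer. LHCB1.1 and LHCB2.1 were higher in the same interaction, by 1.02 each, and the summed leaf markers were 29310 to 31000 CPM in doubly deficient Col-0 rosettes against 21230 to 26320 CPM in the control. Their part was not tested.

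AHA2 and FRD3 were the genes of the set that differed between rosettes of the controls. After the 0.1 µM copper pretreatment AHA2 had 115.2, 135.4 and 141.1 CPM in spl7 against 214 to 219.3 CPM in Col-0, with no overlap (-0.73 ± 0.09, adjusted p = 7.46e-07), and FRD3 had 0.879, 1.28 and 2.07 CPM against 0.153 to 0.324 CPM (2.32 ± 0.71, adjusted p = 0.011). These were 2 of 6 genes where 42.2% of all genes tested were called (20.6% higher and 21.6% lower). Against the spl7 control from the copper-rich pretreatment (179.4, 185.8 and 228.9 CPM) AHA2 was lower as well (-0.60 ± 0.09, adjusted p = 3.7e-05), and FRD3 higher (2.24 ± 0.72, adjusted p = 0.0264, background 23.9%, with 11.9% higher and 12% lower). The raw counts of FRD3 were 5, 2 and 6 in the Col-0 control and 6, 6 and 0 in the spl7 control from the copper-rich pretreatment. The FRD3 call was lost without replicate 3 of the low-copper spl7 control in both comparisons (adjusted p = 0.0549 and 0.103), and in the second also without replicate 2 (0.055) or 3 (0.102) of the other control. In roots the AHA2 difference of the first comparison had the opposite sign, 0.38 ± 0.11, and the difference between organs was not tested.

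In rosettes AHA7, MTP3 and FPN1 were called in 0 of the 13 comparisons by edgeR and 0 by the Wald test, with 1 value below an unadjusted p of 0.05, FPN1 on copper removal from iron-free spl7 (0.32 ± 0.14), where 6142 of all genes tested were below it. Without -Fe replicate 3, FPN1 passed there (0.46, adjusted p = 0.0456). FPN1 ranged from 11.8 to 26.1 CPM over the 27 rosette libraries, MTP3 from 1.09 to 3.20 CPM and AHA7 from 0.662 to 2.29 CPM. Copper removal alone called 0 of 6 genes in rosettes of Col-0 and of spl7, by edgeR and by the Wald test (background 0.02% and 1.12%), with 0 of the 6 below an unadjusted p of 0.05 in either, and 1718 and 3030 of all genes tested. Removal of both metals called 0 of 6 by edgeR in each genotype (background 7.77% and 2.11%), with IRT1 in Col-0 (-1.53 ± 0.60) and AHA2 in spl7 (0.31 ± 0.09) below an unadjusted p of 0.05, as were 4315 and 2921 of all genes tested, and the Wald test called AHA2 in spl7 (adjusted p = 0.0199).

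**Figure D4:**
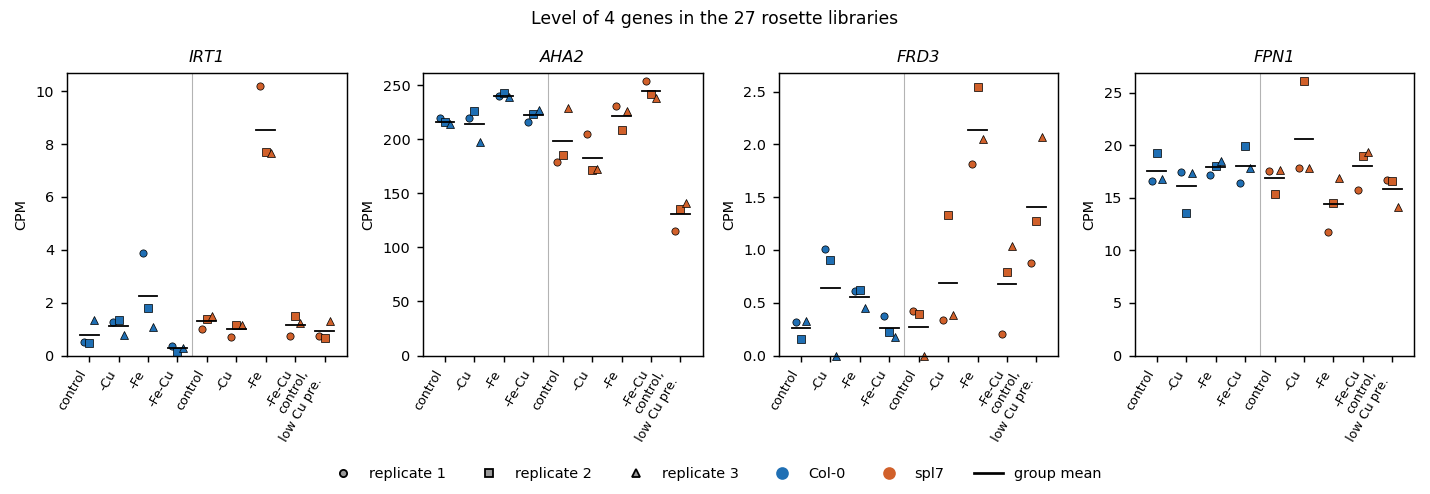
CPM of IRT1, AHA2, FRD3 and FPN1 (y axes, from 0) in each of the 27 rosette libraries, by treatment and genotype, with points for libraries and lines for means of 3. IRT1 stood at 7.67 to 10.2 CPM in iron-free spl7 and at most 3.88 CPM elsewhere, and AHA2 at 115.2 to 141.1 CPM in the low-copper spl7 control, below all other groups.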

How the data were processed

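The authors deposited raw counts of reads per gene, 1 file for each of 54 libraries, for 33610 gene identifiers. The submitters' processing notes name Bowtie, HTSeq and the build TAIR10; versions and the strand setting are not given in the sources used here. Groups were taken from the sample labels, where libraries of 1 group are termed biological replicates with no mention of their source plants. P-values therefore measure the spread among these libraries, part of which may be technical. No 2 libraries were identical.

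Genes were kept by filterByExpr (minimum count 10, minimum total 15), scaled by TMM and tested with edgeR 4.0.16 (quasi-likelihood F test, R 4.3.3, limma 3.58.1), in 1 fit per organ (27 libraries, 9 groups) and 1 over all 54 for the organ comparison. P-values were adjusted by Benjamini-Hochberg over all genes tested and called below 0.05. SEs were derived from the log2 change and its F value. The scripts were tested on simulated data. Alternatives were DESeq2 1.42.0 (size factors, Wald test), no filter, a replicate block, only the groups compared, and leaving out each library. Intervals and count floors cover counting error only.

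All 8 genes are named, and of each pathway list up to 4 called genes with the largest change per comparison, plus FRO2, FIT, markers and the 5 genes most like IRT1. Members and lists were chosen with earlier results of these data known, and the genotype difference in copper removal was added after values were seen. Locus tags (28932 identifiers matched), coordinates and promoters come from RefSeq TAIR10.1; the deposited files carry no coordinates.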

Additional observations from a re-analysis of the deposited data

Results flagged for a closer look

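The interaction of iron and copper removal in Col-0 was called for 1 gene in each organ. In roots it was -2.62 ± 0.72 (log2, SE) for FRD3, which was at its lowest without both metals, and that call held in 1 of 12 fits that each left out 1 library (adjusted p = 0.026 to 0.118). In rosettes it was -3.46 ± 0.71 for IRT1, with the lowest values again without both metals (5, 2 and 5 counts), and held in 12 of 12 such fits (adjusted p = 0.00129 to 0.0226). Between the genotypes, the effect of copper removal in iron-free roots differed by 3.05 ± 0.72 for FRD3, by 3.61 ± 0.86 for MTP3 and by 1.54 ± 0.27 for FPN2. This test was chosen after the values were seen. All 3 were called lower in Col-0, while in spl7 FPN2 was called higher and FRD3 and MTP3 were not called. The calls held in 6, 4 and 12 of the 12 fits with 1 library fewer, and a fit of only the groups compared called 0 of the 8. The genotype difference also compares the pretreatments, 0.1 µM copper for Col-0 and 2.5 µM copper for spl7, so genotype and pretreatment cannot be told apart in it.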

How the results depend on the processing

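With DESeq2 size factors or with no filter on low counts, the number of the genes called was the same in every comparison. The DESeq2 Wald test called 1 gene in place of 0 for both metals removed from spl7 roots and from spl7 rosettes, for iron removal from Col-0 rosettes and between the spl7 root controls, 2 in place of 1 for copper removal from iron-free spl7 roots, 5 in place of 4 for iron removal from Col-0 roots and 4 in place of 3 between the genotypes in roots. Fits of only the groups compared called, in roots, 2 genes in place of 0 for both metals removed from Col-0 and from spl7, 7 in place of 4 for iron removal from Col-0, 0 in place of 3 for iron removal from spl7, 0 in place of 1 for copper removal from iron-free spl7, 1 in place of 0 for the genotype difference in the iron response, 0 in place of 3 for that in copper removal, 3 in place of 1 for the interaction in Col-0, 3 in place of 0 between the spl7 controls and 5 in place of 3 between the genotypes. In rosettes, such a fit called 2 in place of 1 for copper removal from iron-free spl7, and between the organs 6 in place of 7. The cause was not tested.

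Fits that each left out 1 library gave, in roots, 3 to 6 genes called for copper removal from iron-free Col-0 (7 with all libraries), 0 to 4 for the same step in spl7, 2 to 4 for iron removal from Col-0, 1 to 4 for iron removal from spl7, 0 to 3 between the genotypes, 0 to 1 for both metals removed from Col-0, for the interaction and for the genotype difference in the iron response, and 1 to 5 for the genotype difference in copper removal. In rosettes they gave 0 to 1 for iron removal from Col-0, for both metals removed from spl7 and for the genotype difference in the iron response, 1 to 2 for copper removal from iron-free spl7, between the genotypes and between the spl7 controls, and 2 to 3 for iron removal from spl7, with 6 to 7 between the organs. FPN1 in the genotype difference in copper removal, at -0.20 and not called with all libraries, changed sign and was called at 0.63 without the root library labelled spl7 -Fe replicate 3.

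The replicate numbers did not pair the samples: deviations of same-numbered libraries correlated between -0.3 and 0.251, and no comparison had all of its pairs over 0.1. A fit with the replicate number as a block called 3 of the 8 genes in place of 4 for iron removal from Col-0 roots, without MTP3 (adjusted p = 0.0586), and 0 in place of 1 for the interaction there, without FRD3 (-2.66, adjusted p = 0.0593), and moved no other count of these genes. Depth limits the low genes: IRT2 and FPN2 had 6 and 18 counts over 27 rosette libraries. In rosettes IRT1 had 5, 2 and 5 counts in Col-0 without both metals. FRD3 there had 5, 2 and 6 in the Col-0 control and 6, 6 and 0 in the spl7 control from the copper-rich pretreatment.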
